A study of Homo sapiens with 16 samples.

Results

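The metallothioneins MT2A, MT1X, MT1E and MT1F, the metal-sensing transcription factor MTF1 and the zinc exporter SLC30A1 were examined because doxycycline, the drug that switches the transgene on, is a tetracycline, and tetracyclines bind metal ions. The 6 genes were picked by name, not by their values, from the 60107 genes in the count tables, and all 6 were found. Earlier results of these data were known when they were picked. The cells were U2OS-TR, a human osteosarcoma line that makes the tetracycline repressor. Uninduced and induced libraries (5 each) came from U2OS-TR/ΔN-RNMT, a single clone in which a CMV promoter with repressor sites drives ΔN-RNMT, a form of the cap methyltransferase RNMT that lacks its N-terminal part, stays in the cytoplasm and has no activity. Induced cells received 1 μg/ml doxycycline from 48 h after splitting and were collected 24 h later. Untreated and doxycycline-treated libraries (3 each) came from parental U2OS-TR cells, which share the repressor and lack the transgene. Treated parental cells received the drug at the same dose and times as induced cells. The treatment field lists the drug for all samples, so the groups were read from the titles. All libraries were 3′ tag counts from cytoplasmic polyadenylated RNA.

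Metallothioneins are small, cysteine-rich proteins that hold zinc, copper and cadmium in clusters and buffer the free ions of the cell. When zinc is plentiful, MTF1, a zinc finger factor, binds short sequences called metal response elements before the metallothionein genes and before SLC30A1, and their transcription rises. SLC30A1 (ZnT1) sits in the plasma membrane and carries zinc out of the cell. Metallothionein RNA is widely used as a readout of available zinc and of exposure to heavy metals, and the genes also respond to glucocorticoids and to oxidants.

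In GRCh38, with GENCODE gene models, MT2A (ENSG00000125148) lies on the forward strand at chr16:56608584-56609497 and has 3 exons. MT1E (chr16:56625475-56627112, 2 exons), MT1F (chr16:56657731-56660698, 3 exons) and MT1X (chr16:56682470-56684196, 3 exons) follow on the same strand. MT1X overlaps the annotated gene ENSG00000259827 on its own strand, so tags in the overlap could not be assigned to either by position. MTF1 (chr1:37809574-37859592, 11 exons) and SLC30A1 (chr1:211571568-211579161, 2 exons) lie on the reverse strand. MTF1 overlaps ENSG00000235673 on the opposite strand, and the use of strand in counting is not given in the sources used here.

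The stretch of 250 bases before the start of transcription was read for the 4 genes in the RefSeq promoter table (GRCh38.p14). It is shown because this is where MTF1 is known to bind the metallothionein genes. Capitals mark each match to the metal response element core, TGCACNC or TGCGCNC, searched on both strands, where N is any base. A match on the other strand appears as its reverse complement. The windows are chr16:56608334-56608583 for MT2A, chr16:56682220-56682469 for MT1X, chr1:211579162-211579411 for SLC30A1 and chr1:37859593-37859842 for MTF1, each written 5′ to 3′ on the strand of the gene. MT1E and MT1F are named only.
MT2A: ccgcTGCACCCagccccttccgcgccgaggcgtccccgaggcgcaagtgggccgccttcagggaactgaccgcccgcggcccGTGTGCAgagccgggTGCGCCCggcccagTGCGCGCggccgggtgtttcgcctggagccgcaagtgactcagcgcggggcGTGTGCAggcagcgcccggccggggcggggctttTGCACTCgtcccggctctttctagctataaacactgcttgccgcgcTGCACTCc
MT1X: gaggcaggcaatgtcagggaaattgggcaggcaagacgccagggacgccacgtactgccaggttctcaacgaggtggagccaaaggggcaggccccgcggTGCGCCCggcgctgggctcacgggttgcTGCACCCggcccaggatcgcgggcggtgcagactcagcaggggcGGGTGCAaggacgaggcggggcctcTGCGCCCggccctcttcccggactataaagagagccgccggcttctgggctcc
SLC30A1: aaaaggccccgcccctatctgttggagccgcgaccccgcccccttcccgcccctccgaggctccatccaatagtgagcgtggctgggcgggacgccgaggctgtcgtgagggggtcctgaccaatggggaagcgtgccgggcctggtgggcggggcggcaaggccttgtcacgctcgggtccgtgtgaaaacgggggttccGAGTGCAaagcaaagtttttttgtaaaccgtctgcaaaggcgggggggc
MTF1: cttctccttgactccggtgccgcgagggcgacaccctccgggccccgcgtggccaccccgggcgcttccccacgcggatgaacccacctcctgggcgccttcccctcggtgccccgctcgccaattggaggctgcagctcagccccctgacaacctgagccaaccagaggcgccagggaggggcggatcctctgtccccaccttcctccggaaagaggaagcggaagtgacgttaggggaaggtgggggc
The MT2A window held 7 matches, that of MT1X 4, that of SLC30A1 1 and that of MTF1 0. Of 35116 promoters of the same length, 24.8% held at least 1 match, 0.37% at least 4 and 0.0313% at least 7. The MT2A and MT1X windows also held 1 TATAAA each, a sequence found in 10.7% of the promoters. The window of MT1H, a gene with 1 count over the 16 libraries, held 8 core matches and 0 TATAAA. Those of MT1B and MT4, genes with 0 counts, held 3 core matches and 1 TATAAA each. These are matches of letters, and binding was not measured.

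**Figure D1:**
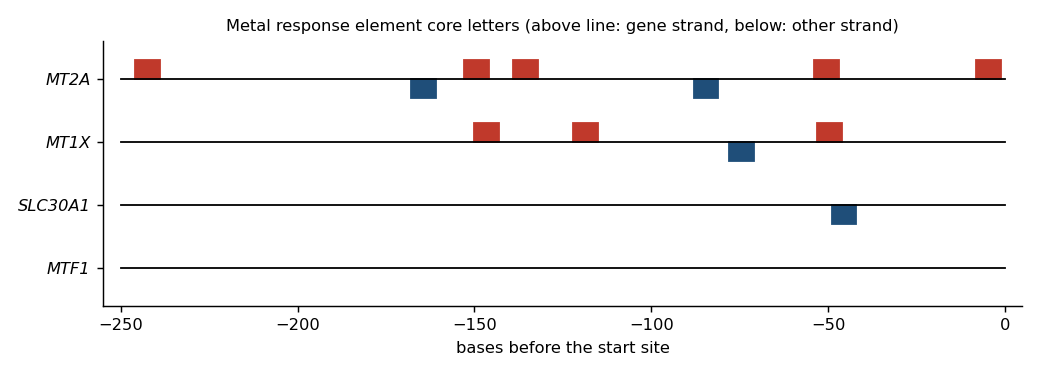
Position of metal response element core letters in the 250 bases before the start site of MT2A, MT1X, SLC30A1 and MTF1 (x axis, bases before the start). Boxes above a line are matches on the strand of the gene and boxes below it matches on the other strand: 7 for MT2A, 4 for MT1X, 1 for SLC30A1 and 0 for MTF1.

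The transgene libraries held between 12527183 and 23251834 gene counts and the parental libraries between 1473286 and 3214808. The parental libraries were sequenced at another facility with reads of 150 nt in place of 75 nt, so line, facility and read length cannot be told apart and levels are compared within a line. Levels are given as CPM, the tags on a gene per mega-tag of the library, on library sizes scaled by edgeR's TMM factors within each line. RNMT, which checks the labels, was 55.6 to 112 CPM in uninduced and 266 to 458 in induced libraries. Among line markers, VIM, RUNX2, COL1A1 and SPARC were detected in each group, BGLAP was at 0 throughout, COL1A2 had 2 counts in all, and ALPL had 119 counts over the 16 libraries. VIM (log2 fold change 1.44, adjusted P = 0.0182) and RUNX2 (1.16, adjusted P = 0.0175, both by edgeR) were higher on induction, together with the changes below; their part in these was not tested. Markers of blood, epithelium, endothelium and liver summed to 5.52 to 12.9 CPM in uninduced, 7.86 to 17.0 in induced, 3.66 to 3.89 in untreated parental and 4.89 to 10.7 in treated parental libraries, with ALB and CD3E at 0 throughout; their part in the results was not tested. A pair of transgene libraries lay near the other group for part of the genes below. Thioredoxin (TXN) was at 221 CPM in uninduced replicate 5 and at most 34.2 in the other uninduced libraries, and at 21.8 CPM in induced replicate 2 and at least 425 in the other induced ones. In untreated parental replicate 1, mitochondrial genes took 9.38% of the counts, the highest share of the 16 libraries.

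Induction of ΔN-RNMT was accompanied by higher MT1E and SLC30A1, whereas MT2A, the metallothionein with the most counted tags in this line, stayed close to its uninduced level. Of the 6 genes, 5 had enough counts to be tested (a mean above 20 normalised counts over the libraries), 2 rose and 0 fell at an adjusted P below 0.05. Among all 13038 genes tested, 20.0% rose and 19.8% fell, and the 2 of 5 are to be read against these shares. With libraries scaled by total counts, 30.8% rose and 10.7% fell. The median log2 fold change was 0.68 over the 5 genes and 0.04 over all genes.

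**Figure D2:**
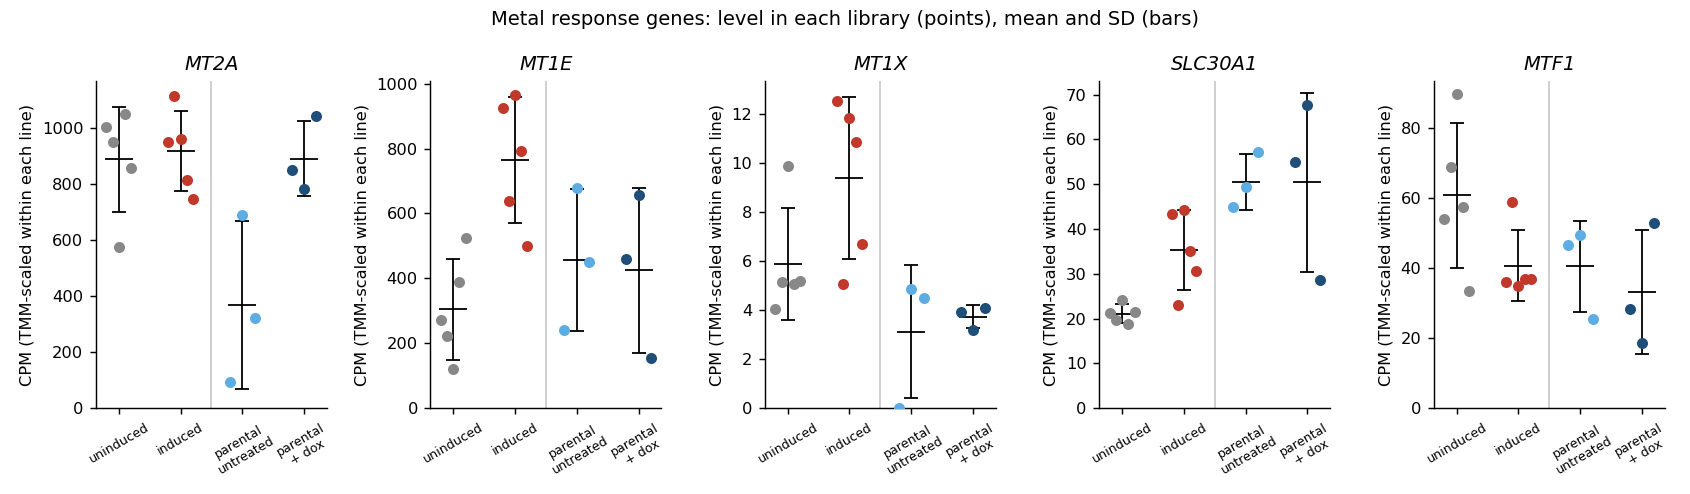
Level of MT2A, MT1E, MT1X, SLC30A1 and MTF1 in each of the 16 libraries (y axis, CPM on TMM-scaled library sizes, scaled within each line; x axis, group). Points are libraries and bars the mean and SD. For MT2A, all treated parental libraries lie above all untreated ones, whereas the transgene groups share their range.

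MT1E gave 271, 222, 121, 388 and 525 CPM in uninduced replicates 1 to 5. It gave 925, 639, 966, 793 and 500 CPM in induced replicates 1 to 5. The highest uninduced library, replicate 5, was above the lowest induced library, replicate 5, and the other uninduced libraries were below all induced ones. MT1E rose from 305 ± 156 to 765 ± 195 CPM (SD, n = 5 each), or 2.51-fold, with a log2 fold change of 1.32 ± 0.35 (SE). The P value adjusted over all genes was 0.0186 (edgeR, quasi-likelihood test, Benjamini-Hochberg). The call held in each of 10 fits that left out 1 library, with a highest adjusted P of 0.0497 by edgeR, just below the threshold. It was lost with 1 surrogate variable in the design (log2 fold change 0.72, adjusted P = 0.0654 by edgeR). Without uninduced replicate 5 and induced replicate 2 the log2 fold change was 1.65 (adjusted P = 0.000753 by edgeR). That pair was chosen after the data were seen, and uninduced replicate 5 had the highest uninduced MT1E. The fit without the pair is therefore no support for the call. In bulk RNA, more cells that express a gene and more RNA per cell cannot be told apart.

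MT2A gave 1004, 951, 577, 1048 and 858 CPM in uninduced replicates 1 to 5. It gave 949, 1115, 960, 812 and 748 CPM in induced replicates 1 to 5. The groups overlapped over most of their range, and the lowest library was uninduced replicate 3. The means were 888 ± 188 and 917 ± 143 CPM (SD, n = 5 each), and the log2 fold change was 0.05 ± 0.19 (SE), with a 95% interval from −0.36 to 0.46 (adjusted P = 0.850 by edgeR). A change of any size within this interval remains compatible with these data. The sign turned in some fits, with −0.09 without uninduced replicate 3 and −0.06 without uninduced replicate 5 and induced replicate 2.

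MT1X had far fewer counted tags than MT2A and MT1E. It gave 4.06, 5.15, 9.89, 5.08 and 5.21 CPM in uninduced and 12.5, 5.08, 11.9, 10.9 and 6.71 CPM in induced replicates 1 to 5. The groups overlapped, with uninduced replicate 3 above induced replicates 2 and 5, and induced replicate 2 level with the remaining uninduced libraries. The log2 fold change of 0.68 ± 0.30 (SE) did not pass the threshold (adjusted P = 0.0882 by edgeR). It passed without uninduced replicate 3 (0.93, adjusted P = 0.0360), without induced replicate 2 (0.84, adjusted P = 0.0305) and with libraries scaled by total counts (0.93, adjusted P = 0.0304, all by edgeR).

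MT1F had 0 counts in all 16 libraries. Whether the annotation behind the counts places its 3′ end where its tags would fall was not tested, so the 0 describes the counts and not the RNA. A count of 0 allows up to 3 counts in a library, which is 0.129 to 0.239 CPM of total gene counts in the transgene line and 0.933 to 2.04 in the parental line. These limits allow for counting error only and leave out the spread between libraries. The remaining metallothionein genes gave next to nothing: MT1G had between 0 and 3 counts per library, MT1H and MT3 had 1 count in 1 library each, and MT1A, MT1B, MT1M and MT4 had 0. Of the 11 genes of the family, 3 were tested in the transgene line.

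Metallothionein genes are close copies of each other, and tags that aligned to more than 1 place were left out of the counts by the authors' pipeline. The last 75 bases of the canonical transcript occur once in GRCh38 for each of the 6 genes. The closest other place shared 72 of 75 bases for MT2A, on chromosome 4 in ENSG00000289942, and 72 of 75 for MT1X, on chromosome 1. It shared 70 for MT1E, in MT1JP, and 66 for MT1F, in MT1G. For MTF1 and SLC30A1, the search found no other place. For each count on a gene, 0.561 to 1.33 tags of the transgene libraries and 0.773 to 1.44 of the parental ones aligned to more than 1 place, so part of the metallothionein tags may be missing.

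SLC30A1, the zinc exporter, gave 21.3, 19.6, 24.2, 18.9 and 21.6 CPM in uninduced replicates 1 to 5. It gave 43.4, 23.1, 44.3, 35.2 and 30.6 CPM in induced replicates 1 to 5. Induced replicate 2 was below uninduced replicate 3, and the other induced libraries were above all uninduced ones. SLC30A1 rose from 21.1 ± 2.06 to 35.3 ± 8.91 CPM (SD, n = 5 each), or 1.67-fold, with a log2 fold change of 0.74 ± 0.19 (SE) and an adjusted P of 0.0177 by edgeR. The call held in all 10 fits that left out 1 library, with a highest adjusted P of 0.0496 by edgeR, just below the threshold. The call was lost with offsets for the GC content of the transcripts (log2 fold change 0.34, adjusted P = 0.121 by edgeR). It was also lost with these offsets and the replicate number as a block together (0.33, adjusted P = 0.110 by edgeR). The block alone kept the call, and 1 surrogate variable lost it (0.69, adjusted P = 0.0767 by edgeR).

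MTF1 itself gave 54.2, 69.0, 89.8, 57.6 and 33.4 CPM in uninduced replicates 1 to 5. It gave 36.1, 58.9, 34.9, 37.1 and 36.9 CPM in induced replicates 1 to 5. Uninduced replicate 5 was the lowest of all 10 libraries and induced replicate 2 stood above the other induced ones. The log2 fold change was −0.58 ± 0.25 (SE), with an adjusted P of 0.0811 by edgeR, short of the threshold. It passed without uninduced replicate 5 (−0.74, adjusted P = 0.00730) and without induced replicate 2 (−0.75, adjusted P = 0.0282, both by edgeR). Without both, a removal chosen after the data were seen, it was −0.90 (adjusted P = 0.000456 by edgeR). With libraries scaled by total counts it was −0.32, a scaling that moves the median of all genes from 0.04 to 0.28, and with 1 surrogate variable it was −0.01.

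**Figure D3:**
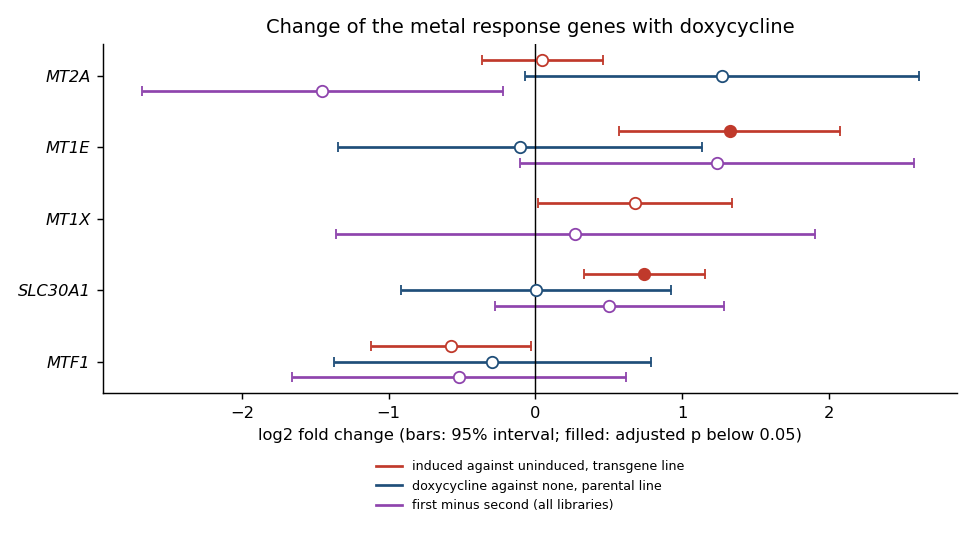
Log2 fold change (x axis) of each gene for induced against uninduced cells of the transgene line, for doxycycline against none in parental cells, and for the difference of those responses over all 16 libraries. Bars are 95% intervals of the edgeR fit and filled points passed an adjusted P of 0.05: MT1E (1.32) and SLC30A1 (0.74) in the transgene line. MT1X was below the count filter in parental cells.

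In parental cells, doxycycline without the transgene left 0 of the 4 genes tested past the threshold, as it did 0 of 9124 genes tested (0%). By edgeR, 267 of those genes had an unadjusted P below 0.05, and DESeq2 called 1 gene, which was not among the 6. With 3 libraries a group and low counts, only wide intervals were available. The median log2 fold change was −0.05 over the 4 genes and −0.01 over all.

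MT2A had the largest log2 fold change of the 4 genes in parental cells. It gave 94.7, 689 and 322 CPM in untreated replicates 1 to 3, from 154, 1130 and 1076 counts. It gave 849, 782 and 1041 CPM in treated replicates 1 to 3, from 2376, 1961 and 1277 counts. Every treated library was above every untreated one, a pattern shared by 444 of the 9124 genes tested (4.87%). The means were 369 ± 300 and 890 ± 134 CPM (SD, n = 3 each), a log2 fold change of 1.27 ± 0.61 (SE) with a 95% interval from −0.07 to 2.61. The unadjusted P was 0.0607 and the adjusted P 0.997 by edgeR's quasi-likelihood test. The lowest value came from untreated replicate 1, the library with the highest mitochondrial share; without it the log2 fold change was 0.90 (adjusted P = 1.00 by edgeR), and without untreated replicate 2 it was 2.18 (adjusted P = 0.877 by edgeR).

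MT1E did not share that order. It gave 242, 679 and 450 CPM in untreated and 461, 658 and 155 CPM in treated replicates 1 to 3, so that treated replicate 3 was the lowest of the 6. The log2 fold change was −0.10 (95% interval −1.34 to 1.14, adjusted P = 0.997 by edgeR) and its sign turned without untreated replicate 2 (0.37) or treated replicate 3 (0.26).

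SLC30A1 gave 44.9, 49.4 and 57.2 CPM in untreated and 55.0, 67.8 and 28.5 CPM in treated parental replicates 1 to 3. Treated libraries lay on both sides of the untreated ones. The log2 fold change was 0.01 (95% interval −0.91 to 0.92, adjusted P = 0.998 by edgeR), and its sign differed between scalings, −0.10 with total counts. MTF1 gave 46.7, 49.4 and 25.5 CPM in untreated and 28.2, 18.7 and 53.0 CPM in treated replicates 1 to 3, again with overlapping groups. Its log2 fold change was −0.29 (95% interval −1.37 to 0.79, adjusted P = 0.997 by edgeR), and 0.06 without treated replicate 2. MT1X had 0, 8 and 15 counts in untreated and 11, 8 and 5 counts in treated libraries, which was below the filter. The parental interval of SLC30A1 included the 0.74 seen on induction in the transgene line. That of MT1E, with an upper bound of 1.14, did not include 1.32. It overlapped the 95% interval of the MT1E change on induction, 0.57 to 2.08.

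Whether the lines differed in their response to the drug was tested in a fit over all 16 libraries. Tags outside genes were more frequent, per gene count, in parental than in transgene libraries. SLC39A5, which overlaps ANKRD52 on the opposite strand, averaged 58.1 CPM in untreated and 42.0 in treated parental libraries. In uninduced and induced libraries it averaged 0.0673 and 0.0119 CPM. Whether tags were assigned to genes alike in both lines was not tested, which limits the differences here and in the lists below. Of the 5 genes tested, 0 passed, against 2.98% of 12265 genes. Of the genes called, 95 had a positive and 270 a negative difference, and with total counts 462 and 44. For MT2A the difference was −1.45 ± 0.58 (SE) on the log2 scale, with an unadjusted P of 0.0234 and an adjusted P of 0.131 by edgeR. It was −0.82 without untreated parental replicate 1, −2.12 without untreated parental replicate 2 and −0.87 with total counts. For MT1E the difference was 1.24 ± 0.64 (SE, adjusted P = 0.226 by edgeR), and for SLC30A1 it was 0.50 (adjusted P = 0.390). For MT1X it was 0.27 (adjusted P = 0.856) and for MTF1 −0.52 (adjusted P = 0.553, both by edgeR), which became 0.15 with total counts. With 1 library left out, the differences ranged from 0.85 to 1.83 for MT1E, from 0.24 to 0.93 for SLC30A1, from 0.02 to 0.96 for MT1X and from −0.72 to −0.01 for MTF1. The lowest of MT1E, SLC30A1 and MTF1 in size came without treated parental replicate 3, and MT1X ran from its lowest without untreated parental replicate 3 to its highest without untreated parental replicate 1. A rise of MT1E with induction past the threshold in the transgene line and not in the parental line was thus not shown to differ between the lines.

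The balance of the main metallothioneins can be read within a library, where scaling cancels. Each RNA gives 1 tag at its 3′ end, so no correction for length was made. In uninduced replicates 1 to 5 there were 0.270, 0.233, 0.210, 0.370 and 0.611 MT1E tags per MT2A tag, and in induced replicates 0.975, 0.573, 1.01, 0.976 and 0.668. All induced libraries but replicate 2 were above all uninduced ones. In parental cells the order ran the other way, with 2.55, 0.986 and 1.40 MT1E tags per MT2A tag in untreated and 0.543, 0.842 and 0.149 in treated replicates 1 to 3, and every treated library was below every untreated one. The highest parental ratio came from untreated replicate 1, with 154 MT2A counts, and the lowest from treated replicate 3, with 190 MT1E counts. How often the ratio of other gene pairs separates the groups was not examined. The ratio of MT1E to MT2A was chosen after the values were seen, so it is given as a description with no test.

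**Figure D4:**
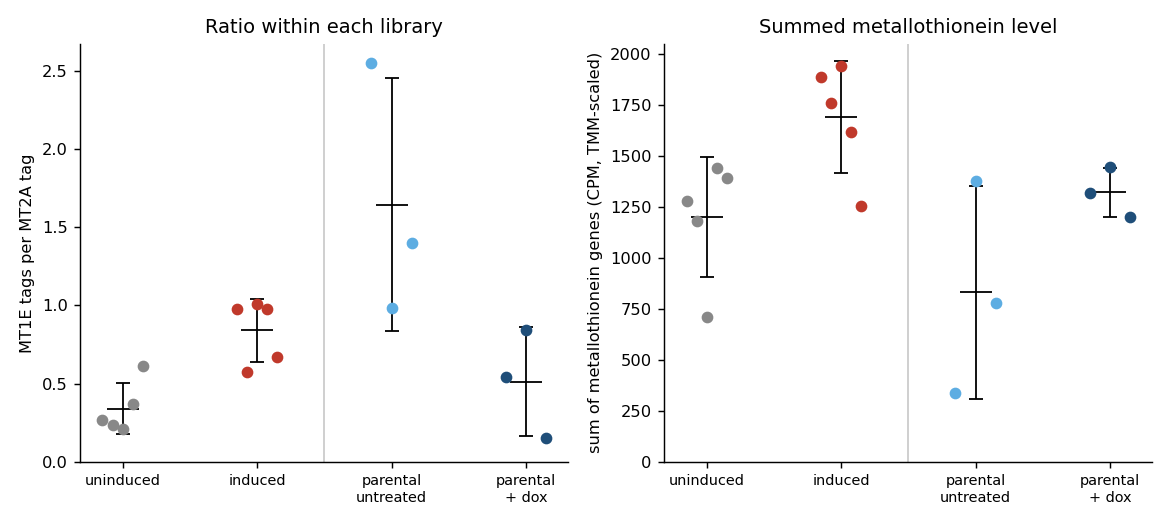
Left, MT1E tags per MT2A tag in each library; right, summed CPM of the metallothionein genes on TMM-scaled library sizes (x axis, group). Points are libraries and bars the mean and SD. The ratio averaged 0.339 in uninduced and 0.840 in induced libraries, and 1.65 in untreated and 0.511 in treated parental libraries.

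The summed metallothionein level was 1199 ± 293 CPM in uninduced and 1691 ± 274 CPM in induced libraries (SD, n = 5 each). MT2A made up 75.1 ± 8.16% of the sum in uninduced and 54.6 ± 6.42% in induced libraries. In parental cells the sum was 830 ± 521 CPM without and 1320 ± 121 CPM with doxycycline (SD, n = 3 each), and the share of MT2A was 39.9 ± 11.1% and 68.4 ± 16.6%. The group ranges of the sum overlapped in both lines, from 707 to 1441 and from 1255 to 1937 CPM in the transgene line and from 336 to 1375 and from 1201 to 1444 CPM in the parental line.

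Across the 10 transgene libraries, the genes whose log2 CPM ran most like MT2A were PPP3R1 (Pearson r = 0.962), FUBP3 (0.962), ANKMY2 (0.951), ADNP (0.949) and PCK2 (0.945). MT1E had an r of 0.467 with MT2A and ranked 1568 of 13037 genes, SLC30A1 −0.116, MT1X −0.415 and MTF1 −0.197. The points share their library depth and scaling, and Spearman's rho was 0.164 for MT1E.

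The other zinc carriers were read from lists of the ZnT exporters and ZIP importers. Of 10 exporters, 8 were tested on induction, 2 rose and 1 fell, with a median log2 fold change of 0.21 against 0.04 for all genes. Here and in the lists below, the counts stand beside the 20.0% of all genes tested that rose and the 19.8% that fell. Beside SLC30A1, SLC30A4, which loads zinc into vesicles, rose from 4.14 ± 2.10 to 9.25 ± 4.68 CPM (log2 fold change 1.15, adjusted P = 0.0429 by edgeR). SLC30A3, a vesicular zinc transporter, fell from 308 ± 54.7 to 135 ± 35.0 CPM (−1.19, adjusted P = 0.0175 by edgeR). Of 14 importers, 11 were tested, 2 rose and 3 fell, with a median of −0.05. SLC39A14 rose from 17.2 ± 11.3 to 50.5 ± 21.0 CPM (1.55, adjusted P = 0.0222) and SLC39A8 from 4.07 ± 1.41 to 7.45 ± 1.98 CPM (0.87, adjusted P = 0.0264, both by edgeR). Both also carry iron or manganese. SLC39A11 (−0.71, adjusted P = 0.0188), SLC39A3 (−0.63, adjusted P = 0.0298) and SLC39A1 (−0.55, adjusted P = 0.0210, all by edgeR) fell.

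**Figure D5:**
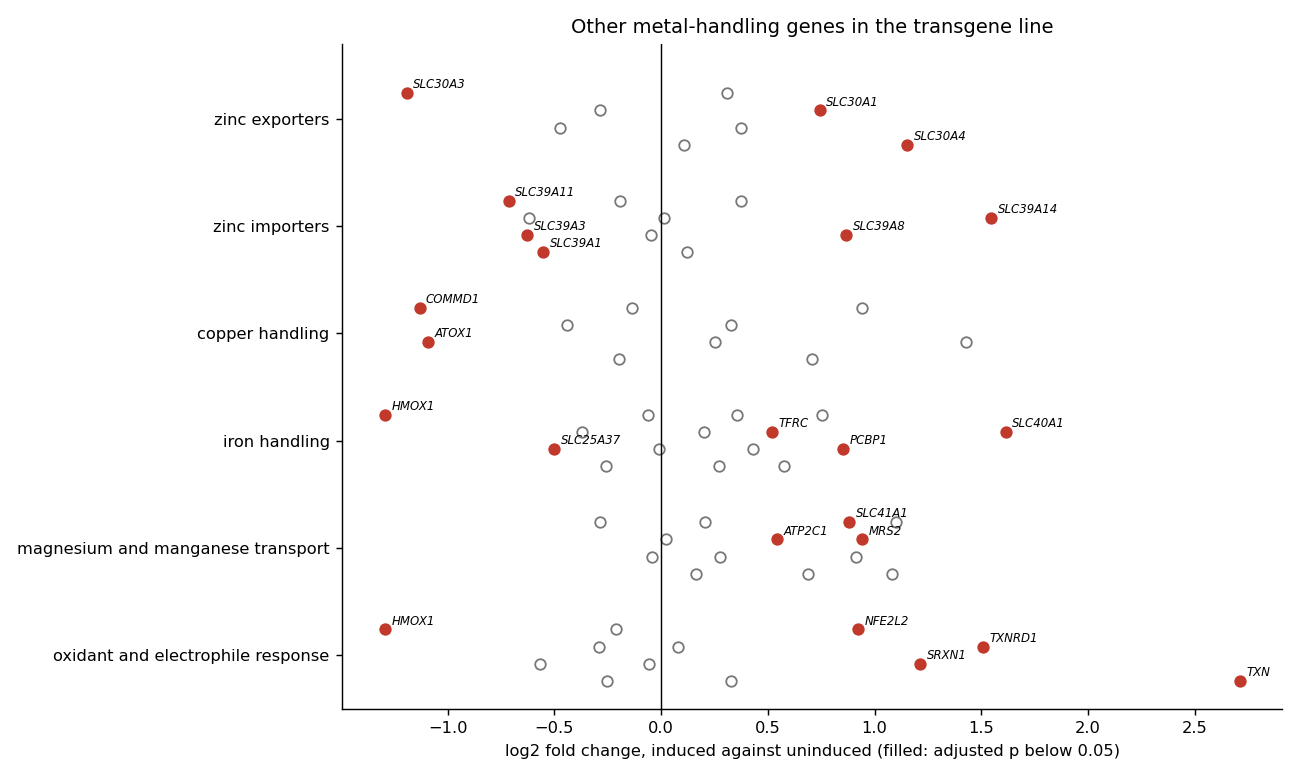
Log2 fold change, induced against uninduced, of each tested gene in 6 lists of metal-handling and oxidant response genes (y axis, list). Filled points passed an adjusted P of 0.05 and are named: 2 of 8 zinc exporters rose and 1 fell, and 4 of 12 oxidant response genes rose and 1 fell.

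Of 11 copper-handling genes, 10 were tested, 0 rose and 2 fell, with a median log2 fold change of 0.06 (19.8% of all genes fell). COMMD1, which takes part in copper export, went from 106 ± 29.3 to 48.2 ± 13.5 CPM (log2 fold change −1.13, adjusted P = 0.0175) and ATOX1, a copper chaperone, from 289 ± 90.2 to 136 ± 38.5 CPM (−1.09, adjusted P = 0.0175, both by edgeR). Of 15 iron-handling genes, all tested, 3 rose and 2 fell, with a median of 0.27. The iron exporter SLC40A1 rose (1.62, adjusted P = 0.0175), as did the iron chaperone PCBP1 (0.85, adjusted P = 0.0295) and the transferrin receptor TFRC (0.52, adjusted P = 0.0457), while the haem-degrading enzyme HMOX1 fell from 182 ± 90.0 to 74.3 ± 8.24 CPM (−1.29, adjusted P = 0.0175, all by edgeR). The mitochondrial iron carrier SLC25A37 also fell (−0.50, adjusted P = 0.0255 by edgeR). Of 15 magnesium and manganese transport genes, 13 were tested, 3 rose and 0 fell, with a median of 0.54 (20.0% of all genes rose). These were MRS2, the mitochondrial magnesium channel (0.94, adjusted P = 0.0262), SLC41A1, a magnesium transporter (0.88, adjusted P = 0.0201), and ATP2C1, a Golgi pump for calcium and manganese (0.54, adjusted P = 0.0308, all by edgeR).

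The oxidant and electrophile response was included since it is a further known inducer of metallothioneins. All 12 genes were tested, 4 rose and 1, HMOX1, fell, with a median of 0.01. TXN rose from 63.3 ± 88.2 to 415 ± 227 CPM (log2 fold change 2.71, adjusted P = 0.0334), its reductase TXNRD1 from 23.8 ± 14.2 to 67.9 ± 26.6 (1.51, adjusted P = 0.0191) and SRXN1, sulfiredoxin, from 10.1 ± 6.27 to 23.4 ± 9.24 (1.21, adjusted P = 0.0497, all by edgeR). NFE2L2, the factor that drives this response, rose from 17.5 ± 4.63 to 33.2 ± 9.56 CPM (0.92, adjusted P = 0.0185 by edgeR). TXN was moved most by the libraries that stand apart, with a log2 fold change of 4.42 without uninduced replicate 5 and induced replicate 2.

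Fits that left out 1 of the 10 libraries kept 7 of the 20 calls examined in this way in every case: MT1E, SLC30A1, SLC30A3, COMMD1, ATOX1, SLC40A1 and HMOX1. For each of these 7, the highest adjusted P in such fits was 0.0495 to 0.0497 by edgeR, just below the threshold. The other 13 lost their call in at least 1 such fit, most of them without uninduced replicate 1 or 2 or induced replicate 1, 3 or 4. With 1 surrogate variable, all 20 calls were lost, and with GC offsets 9, which were SLC30A1, SLC30A4, SLC39A8, SLC39A3, TFRC, MRS2, ATP2C1, TXN and SRXN1. GC offsets brought SLC39A3 to −0.12 (adjusted P = 0.480), TFRC to 0.17 (adjusted P = 0.358), ATP2C1 to 0.16 (adjusted P = 0.442), SLC30A4 to 0.69 (adjusted P = 0.172) and MRS2 to 0.55 (adjusted P = 0.0753, all by edgeR). TFRC also lost its call with DESeq2's size factors and with no filter, SRXN1 with DESeq2's size factors and filterByExpr, ATP2C1 with no filter, and SLC39A3 with total counts and with the replicate block. SLC39A1, SLC25A37 and NFE2L2 were not refitted in this way for induction.

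In parental cells, 0 genes of these lists passed. The tests of the difference between lines called SLC39A1 (−1.72, adjusted P = 0.0372), SLC39A11 (−1.74, adjusted P = 0.0408) and COMMD1 (−2.58, adjusted P = 0.0372, all by edgeR), and no other gene of the lists. SLC39A1 was at 146 CPM without and 279 CPM with doxycycline in parental cells and at 409 and 279 CPM in the transgene line. These calls were lost in most fits that left out 1 library: SLC39A1 and SLC39A11 kept theirs in 4 of 16 and COMMD1 in 5 of 16. SLC39A1 and SLC39A11 also lost theirs with total counts, with no filter and with filterByExpr, and COMMD1 with filterByExpr.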

How the data were processed

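Tags were counted in 16 libraries of cytoplasmic RNA. The counts that the authors deposited are unnormalized tags per Ensembl gene from the Lexogen QuantSeq REV pipeline for GRCh38, 1 library at a time. How tags were aligned, against which annotation release, with or without strand and duplicates, is not given in the sources used here. Each table lists 60107 genes, of which 56104 were named by GENCODE 44, beside 92 spike-in and 5 summary entries that were left out. For every count on a gene, the summary entries held 0.0744 to 0.106 tags outside genes in transgene libraries and 1.11 to 1.50 in parental libraries.

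A mean of over 20 normalised counts was required for testing, within each line and over all libraries for the difference of responses, and edgeR 4.0.16 in R 4.3.3 was used (quasi-likelihood test on TMM-scaled libraries, P values adjusted over all genes tested after Benjamini and Hochberg, calls below 0.05, prior count 2). Standard errors (SE) follow from the log2 fold change and its F statistic. The scripts were tested on simulated data with the same spread for all genes and both lines, so the wider spread of parental libraries was not covered. The study's methods call the libraries biological replicates or separate cultures. The closest pair of a group gave 4.55 for chi-square over its degrees of freedom, and none was counted as a duplicate. Transcript ends were searched with BLAST 2.17.0.

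The alternatives were DESeq2 1.42.0, its size factors, total counts, filterByExpr, no filter, GC offsets, the replicate number as a block, 1 surrogate variable (sva 3.50.0) and each library left out. Leaving out uninduced replicate 5 with induced replicate 2 was added after seeing the data. The members and lists were chosen with earlier results of these data known. Named were all members, up to 4 called genes of each list with the largest change (up to 2 in other comparisons) and the 5 genes most like MT2A. SLC25A37 and NFE2L2 fall outside that rule and were chosen after their values were seen. SCO2 was not matched.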

Additional observations from a re-analysis of the deposited data

Results flagged for a closer look

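Dixon's ratio, the gap of an extreme library to its neighbour over the range of its group of 5, was above the limit of 0.710 in 10 of 68 groups checked, 2 of them member levels and 8 levels of list genes, and chance flags about 1 in 20 groups. MT1X was high in uninduced replicate 3 (9.89 against 5.21 CPM, ratio 0.804) and MTF1 in induced replicate 2 (58.9 against 37.1 CPM, ratio 0.91). Uninduced replicate 5 was high for SLC39A14 (ratio 0.773), SLC39A8 (0.813), TXNRD1 (0.753), COX17 (550 against 70.2 CPM, ratio 0.89) and TXN (221 against 34.2 CPM, ratio 0.918). Induced replicate 2 was high for COMMD1 (ratio 0.886) and low for TXN (21.8 against 425 CPM, ratio 0.744), and induced replicate 5 was high for PCBP2 (336 against 254 CPM, ratio 0.827). The test of the difference in response between the lines called SLC39A11 (log2 difference −1.74), SLC39A1 (−1.72) and COMMD1 (−2.58). These calls were kept in 4, 4 and 5 of 16 fits that left out 1 library, in that order. All were lost with filterByExpr. The cause was not tested for any of the flagged results.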

How the results depend on the processing

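MT1E passed in the transgene line in all alternatives but 1 surrogate variable, and SLC30A1 in all but GC offsets, the replicate block with GC offsets and 1 surrogate variable. The number of members called there went from 2 to 1 with GC offsets and with the block and GC offsets, to 0 with 1 surrogate variable, to 4 without uninduced replicate 5 and induced replicate 2, and was 2 to 4 with 1 library left out. Genes called numbered 5183, 1 with 1 surrogate variable, 8329 without those libraries and 1869 to 7604 with 1 library left out. In parental cells, calls went from 0 to 1 with DESeq2, to 10 with no filter and to 0 to 2 with 1 library left out. For the difference of responses, 365 became 1478 with DESeq2, 236 with its size factors, 3 with filterByExpr, 150 with no filter, 222 with the replicate block, 3040 without uninduced replicate 5 and induced replicate 2, and 0 to 2290 with 1 library left out. The cause was not tested. Members called stayed at 0 in the last 2 comparisons throughout.

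Signs turned for MT2A on induction with 1 surrogate variable (−0.10), without uninduced replicate 5 and induced replicate 2 (−0.056) and with 1 library left out (−0.093 to 0.11, uninduced replicate 3 and induced replicate 2). They turned for SLC30A1 in parental cells with total counts (−0.10), GC offsets (−0.020), the replicate block (−0.067), the block with GC offsets (−0.039) and 1 library left out (−0.22 to 0.24), for MT1E there (−0.54 to 0.37) and MTF1 (−0.83 to 0.061) with 1 library left out, and for MTF1 in the difference with total counts (0.15). With Spearman's rho and with total counts, the likeness to MT2A was 0.164 and 0.753 for MT1E, −0.576 and −0.0351 for MT1X, −0.394 and 0.308 for SLC30A1, and 0.103 and −0.471 for MTF1.

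Whether replicate numbers pair the libraries is not given in the sources used here. Same-numbered deviations correlated at −0.246, 0.625, −0.373, −0.112 and 0.236 in the transgene line and at 0.00, 0.237 and −0.420 in the parental line. Those of different numbers ranged from −0.758 to 0.533 in the transgene line and from −0.396 to 0.494 in the parental line. With the replicate block, MT1E was at 1.45 (adjusted P = 0.0244 by edgeR), SLC30A1 at 0.71 (adjusted P = 0.0204) and parental MT2A at 1.67. In the parental line, with 1473286 to 3214808 gene counts per library, MT1X fell below the count filter.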
